A study of Sus scrofa with 32 samples.

Results

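The BCL2 family and the transcriptional repressor BCL6 were examined in pig endometrium through 10 genes: BCL2, BCL2L1, MCL1, BMF, BCL2L11, BID, BBC3, BAX, BAK1 and BCL6. Each was matched by its pig gene symbol to 1 NCBI gene ID, and they make up 10 of the 30185 genes counted. Prepubertal gilts were synchronized with eCG followed by hCG. The 4 pregnant gilts were inseminated with German Landrace semen, and the 4 cyclic (nonpregnant) gilts were given the supernatant of spun semen of that boar. On Day 14 the epithelium of the lumen (LE) and of the glands (GE), blood vessels (BV) and stromal areas (S) were cut out of frozen endometrium by laser capture microdissection, in pregnant gilts at the attachment zones after the conceptus had been taken off. A library was made from each compartment of each gilt, and 31 libraries were analysed, with n = 3 in pregnant GE, where gilt P41 was not analysed here, and n = 4 in every other group.

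The BCL2 family decides whether a cell keeps its mitochondrial outer membrane closed. Pro-survival members (BCL2, BCL2L1, which encodes BCL-XL, and MCL1) hold the effectors BAX and BAK1 in check, and BH3-only members (BMF, BCL2L11, which encodes BIM, BID, and BBC3, which encodes PUMA) bind the pro-survival proteins or the effectors and so favour pore formation, release of cytochrome c and caspase activation. BCL6 is no relative of BCL2 but a zinc finger repressor, named, like BCL2, after B cell lymphoma and best known from germinal centre B cells.

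On Sscrofa11.1, BMF (gene ID 110261428) lies at chr1:131178021-131199668 on the plus strand and BCL2 (100049703) on the same chromosome and strand at chr1:158337403-158518214. BCL2L11 (396632) lies at chr3:45156791-45202996 and BCL6 (100156549) at chr13:125377247-125401328, both on the minus strand. MCL1 (397648) is at chr4:98562092-98567014 on the plus strand, BCL2L1 (397536) at chr17:35366139-35415798 on the minus strand, BID (594852) at chr5:69849007-69874647 on the minus strand and BAK1 (397543) at chr7:29808849-29815345 on the minus strand. BAX (396633) at chr6:54222341-54228150 on the plus strand and BBC3 (100517403) at chr6:53037103-53046902 on the minus strand share a chromosome.

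The 250 bases before the annotated start are shown for the 4 genes whose levels differed most between pregnant and cyclic gilts, read 5′ to 3′ on the strand of the gene from the RefSeq genome Sscrofa11.1. They lie at chr1:131177771-131178020 (BMF), chr3:45202997-45203246 (BCL2L11), chr13:125401329-125401578 (BCL6) and chr1:158337153-158337402 (BCL2). Capitals mark matches, on either strand, to any of 5 motifs that do not overlap here: the FOXO site GTAAACA, the palindrome TTCNNNGAA bound by STAT factors and close to the BCL6 site, the GC box GGGCGG, the E-box CACGTG and the TATA motif TATAAA.
BMF: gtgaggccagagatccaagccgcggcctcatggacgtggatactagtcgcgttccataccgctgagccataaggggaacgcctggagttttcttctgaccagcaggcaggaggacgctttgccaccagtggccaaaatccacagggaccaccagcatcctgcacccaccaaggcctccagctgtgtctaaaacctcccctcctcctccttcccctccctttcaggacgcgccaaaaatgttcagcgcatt
BCL2L11: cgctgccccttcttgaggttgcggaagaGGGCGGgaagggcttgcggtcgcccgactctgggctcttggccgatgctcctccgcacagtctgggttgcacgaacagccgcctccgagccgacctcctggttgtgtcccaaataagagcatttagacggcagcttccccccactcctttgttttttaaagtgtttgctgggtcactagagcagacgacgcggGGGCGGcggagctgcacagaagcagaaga
BCL6: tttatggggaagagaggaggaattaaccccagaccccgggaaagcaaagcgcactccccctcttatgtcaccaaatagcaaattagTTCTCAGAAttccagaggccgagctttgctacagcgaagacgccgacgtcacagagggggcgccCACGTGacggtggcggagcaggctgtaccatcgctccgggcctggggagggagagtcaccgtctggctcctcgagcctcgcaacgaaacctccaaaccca
BCL2: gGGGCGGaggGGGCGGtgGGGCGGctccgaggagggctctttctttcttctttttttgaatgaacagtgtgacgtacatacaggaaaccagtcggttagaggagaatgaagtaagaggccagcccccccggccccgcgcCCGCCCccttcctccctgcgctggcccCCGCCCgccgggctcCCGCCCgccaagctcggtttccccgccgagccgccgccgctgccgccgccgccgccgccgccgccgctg
BMF held no match in this window. BCL2L11 held 2 GC boxes and BCL2 held 6, a motif present in 45.9% of the 19546 protein-coding promoters of this length. BCL6 held 1 match to TTCNNNGAA, found in 6.11% of these promoters, and 1 E-box, found in 6.39%. The FOXO site was present in 2.27% and the TATA motif in 9.77% of promoters, and in none of these 4. A match describes letters only.

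Library totals lay between 2415216 and 7081556 counts, with 116405651 counts in all. A gene was called detectable where the authors' filtered table of the compartment kept it. All members but BBC3 and BAX were detectable in the 4 compartments. BAX was detectable in LE and GE, and BBC3 in none. Tests therefore covered 9 members in each epithelium and 8 in both BV and S. For the comparison of pregnant and cyclic gilts, levels are given as CPM, in which counts are divided by TMM-corrected library totals of the compartment. Levels are given as RPKM, which also divides by the exon length in kilobases after a joint normalization, for comparisons between genes or compartments. Summed markers of epithelium lay between 1913 and 3755 CPM in LE and GE and at 512 CPM at most in BV and S, and those of fibroblasts between 3229 and 17580 CPM in LE and GE and between 25915 and 107416 CPM in BV and S. Endothelial markers reached 2963 CPM in BV and 2771 CPM in S. Captures hold many cells, so fewer expressing cells and less RNA per cell cannot be told apart in any value below.

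Pregnant and cyclic gilts were compared in each compartment with the quasi-likelihood test of edgeR, to localize differences that go with the conceptus. DEGs were called by the rule of the study, but on this test and not on edgeR's robust GLM, which its methods name. LE used a false discovery rate of 1%. The other compartments used as their limit the largest unadjusted p among the LE calls, 0.0003277 here, where the study printed 0.0012. Adjusted p-values are Benjamini-Hochberg values of this test over all detectable genes of the compartment. BCL2 was upregulated in LE and BMF in S. BMF in LE had an adjusted p of 0.0101, just past the threshold. With 5% as the rate in every compartment the genes that passed were BMF, BCL2, BCL2L11 and BCL6 in LE, BMF and BCL2 in GE, and BMF and BCL2L11 in BV, all higher in pregnant gilts. Apart from BMF and BCL2 in LE, each of these missed 5% when certain single libraries were left out. BMF and BCL2 in GE missed it whichever library was left out. In this test on all libraries no member passed either threshold with a lower level in pregnant gilts.

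Under the call rule 1 of 9 members was called in LE, beside 3.32% of all 12002 genes tested there. GE had 0 of 9, beside 0.748% of 11905 genes, BV 0 of 8, beside 1.86% of 11096 genes, and S 1 of 8, beside 0.293% of 11935 genes. At 5%, LE had 4 of 9 members (10.7% of all genes), GE 2 of 9 (1.86%), BV 2 of 8 (8.63%) and S 0 of 8 (0.0335%). At an unadjusted p under 0.05 in edgeR, LE had 4 members (26.9% of all genes), GE 5 (23%), BV 3 higher and 1 lower (28.5%) and S 2 (14.5%). DESeq2 called 4, 3, 2 and 1 members in LE, GE, BV and S, respectively, and edgeR's robust GLM, named in the study's methods, with its likelihood ratio test 4, 3, 3 and 2. Both called BMF in every compartment, BCL2 and BCL6 in LE and GE, and BCL2L11 in LE and BV. The robust GLM also called BCL6 in BV and BCL2L11 in S. These tests also called more of all genes, between 2.6% and 11.2% of those tested with DESeq2 and between 3.16% and 11.8% with the robust GLM. Pregnant libraries lay above every cyclic one for 4 members of LE (10.3% of all genes), 4 of GE (11%), 2 of BV (8.99%) and 1 of S (3.85%). The members were chosen with earlier results of these data known, so the shares in this paragraph are no test of the family.

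**Figure D1:**
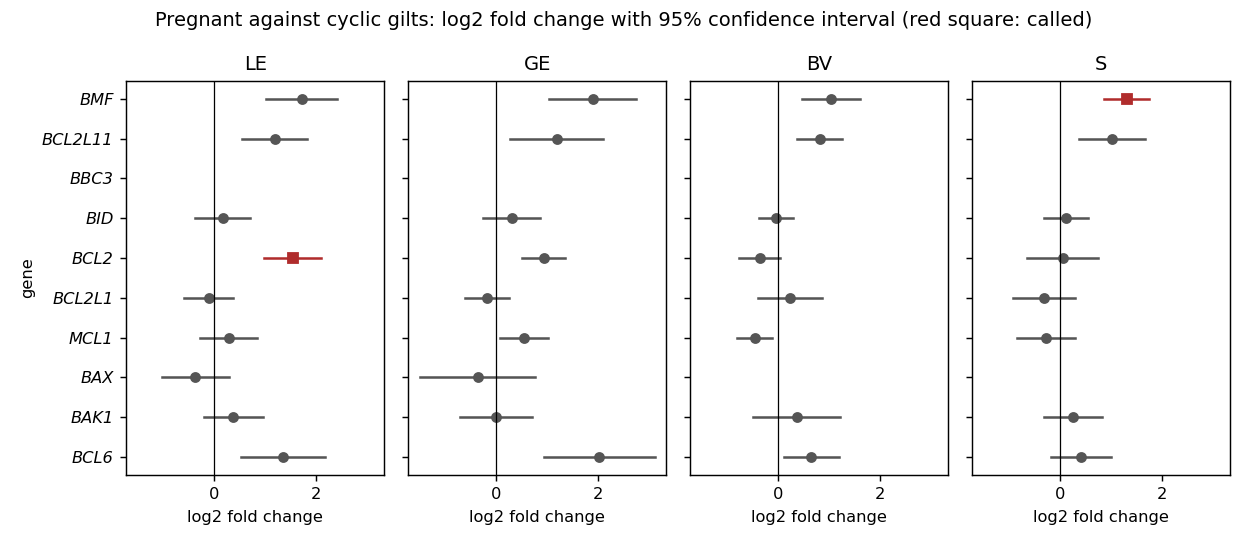
Log2 fold change of pregnant against cyclic gilts for the 10 members (rows) in LE, GE, BV and S (panels), with the 95% confidence interval of the edgeR fit as a line. Red squares mark the 2 called results, BCL2 in LE at 1.54 and BMF in S at 1.31. BMF and BCL2L11 lie to the right of 0 in all panels, and members that were not detectable in a compartment have no point.

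Among the pro-survival genes, the log2 fold change farthest from 0 was that of BCL2 in LE and GE, of MCL1 in BV and of BCL2L1 in S. BCL2 encodes the founding member of the family, which sits in the outer mitochondrial and endoplasmic reticulum membranes and binds BH3-only proteins. Values per library are given in the order of gilts C128, C40, C42 and C78 for cyclic and P139, P39, P41 and P43 for pregnant gilts, without P41 in GE, C or P for the state standing before the animal's number. In LE, BCL2 was at 71.8, 58.5, 45.5 and 49.9 CPM in cyclic and at 243, 164, 126 and 125 CPM in pregnant gilts. The groups did not overlap, and gilt P139 was the highest. BCL2 rose in LE by 1.54 on the log2 scale (SE 0.25, 2.92-fold, n = 4 and 4, edgeR adjusted p = 0.00695). The call was lost without cyclic gilt C40 (adjusted p = 0.0256), C42 (0.0258) or C78 (0.0138) or pregnant gilt P139 (0.0132), P39 (0.0232) or P43 (0.0141), while the log2 fold change stayed between 1.29 and 1.65. Endothelial and fibroblast markers, which belong to compartments where BCL2 was high, summed to 135 to 751 and 4472 to 15216 CPM in cyclic LE and to 438 to 1063 and 11017 to 17580 CPM in pregnant LE. All 7 tested endothelial and 6 of 8 fibroblast markers had a log2 fold change above 0 there, none passed 5% and none was at 0. Epithelial markers summed to 3034 to 3755 CPM in cyclic and to 2544 to 2842 CPM in pregnant LE, without overlap. Of the 10, none was at 0, 3 had a log2 fold change above 0, and 4 keratins were lower past 5%, KRT7 (log2 fold change -2.73, edgeR adjusted p = 0.00197) and KRT8 (-1.60, 0.00837), both called, and KRT18 (-1.46, 0.0101) and KRT19 (-3.45, 0.0112). Smooth muscle markers summed to 187 to 466 CPM in cyclic and to 158 to 217 CPM in pregnant LE, with MYH11 lower past 5% (-1.90, edgeR adjusted p = 0.0195). The part of any of these in the LE results of BCL2, BMF, BCL2L11 and BCL6 was not tested.

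In GE, BCL2 was at 33.5, 39.9, 27.02 and 33.3 CPM in cyclic and at 73.7, 61.9 and 56.4 CPM in pregnant gilts. The groups did not overlap here either. The log2 fold change was 0.94 (SE 0.18, n = 4 and 3), with an edgeR adjusted p of 0.0482 and an unadjusted p of 0.000762 above the limit for a call. In BV the cyclic libraries were at 289, 275, 209 and 225 CPM and the pregnant ones at 165, 162, 254 and 199 CPM. These groups overlapped, and the log2 fold change was -0.36 (SE 0.18, edgeR adjusted p = 0.226). BCL2 in S was at 365, 398, 538 and 260 CPM in cyclic and at 210, 583, 447 and 388 CPM in pregnant gilts. The groups overlapped widely around a log2 fold change of 0.06 (95% interval -0.64 to 0.76), and no difference was detectable at this spread.

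MCL1 encodes a short-lived pro-survival protein with a rapid turnover. In GE it was at 243, 394, 276 and 265 CPM in cyclic and at 465, 380 and 452 CPM in pregnant gilts. Cyclic gilt C40 lay within the pregnant range, and the log2 fold change was 0.56 (SE 0.20, edgeR adjusted p = 0.160, unadjusted p = 0.0259). In BV the sign was the opposite, with 338, 450, 437 and 383 CPM in cyclic and 360, 272, 261 and 282 CPM in pregnant gilts. Pregnant gilt P139 lay within the cyclic range there, and the log2 fold change of -0.45 (SE 0.15) had an edgeR adjusted p of 0.0889. MCL1 means in LE were 512 ± 153 (SD, n = 4) in cyclic and 627 ± 58.6 CPM in pregnant gilts, and in S 329 ± 89.6 and 273 ± 85.7 CPM, with adjusted p-values of 0.488 and 0.671 in edgeR. BCL2L1, whose BCL-XL product guards the same membrane, ranged from 20.9 to 83.0 CPM over the tested groups. Its log2 fold changes were -0.10, -0.16, 0.24 and -0.30 in LE, GE, BV and S, respectively, with edgeR adjusted p-values from 0.601 to 0.807.

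Of the BH3-only genes, BMF was higher in pregnant gilts in all 4 compartments and without overlap in each. BMF binds dynein light chain at the cytoskeleton and, once released, pro-survival proteins. It is known from the death of epithelial cells that lose their anchorage. In LE, BMF was at 20.9, 20.4, 22.3 and 45.1 CPM in cyclic and at 106, 95.3, 56.8 and 102 CPM in pregnant gilts. Cyclic gilt C78 was the highest of its group and pregnant gilt P41 the lowest of its own, and both groups stayed apart. The log2 fold change was 1.73 (SE 0.31, 3.31-fold, edgeR adjusted p = 0.0101). The 1% threshold was reached without cyclic gilt C78 (2.09, adjusted p = 0.00256) or pregnant gilt P41 (1.90, adjusted p = 0.00836). Without any other library the edgeR adjusted p lay between 0.0220 and 0.0357.

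In GE, where BMF was lowest, cyclic libraries held 5.50, 7.97, 7.53 and 6.99 CPM and pregnant ones 36.6, 29.4 and 12.0 CPM. Pregnant gilt P43 lay nearest to the cyclic gilts. The log2 fold change was 1.90 (SE 0.37, 3.73-fold, n = 4 and 3, edgeR adjusted p = 0.0493, unadjusted p = 0.000850). Without pregnant gilt P43 it was 2.23 and called (edgeR unadjusted p = 2.77e-05), though the adjusted p was then 0.0698. BMF in GE missed 5% whichever library was left out (edgeR adjusted p from 0.0587 to 0.146). Leukocyte markers were also higher in pregnant GE, summing to 25.0 to 37.6 CPM in cyclic and 93.8 to 125 CPM in pregnant GE. Among pregnant gilts their sum was lowest in P39, whereas BMF was lowest in P43. All 4 tested of the 12 had a log2 fold change above 0, of which the monocyte marker CD14 passed 5% (log2 fold change 2.88, edgeR adjusted p = 0.0434), and 1 of 12 was at 0 in either group. DESeq2 and the robust GLM each called 3 of the 4 higher, beside 6.64% and 6.66% of all genes. Of 10 epithelial markers in GE, KRT18 was lower past 5% (-0.90, edgeR adjusted p = 0.0478), with sums of 1915 to 2384 CPM in cyclic and 1913 to 2181 CPM in pregnant GE. Endothelial markers summed to 18.4 to 49.6 CPM in cyclic and 19.3 to 198 CPM in pregnant GE, with gilt P139 the highest. All 5 tested of the 8 had a log2 fold change above 0, none passed 5% and none of the 8 was at 0. Fibroblast markers summed to 3229 to 8160 CPM in cyclic and 3955 to 7077 CPM in pregnant GE, with 3 of 8 above 0. The part of any of these in the results of BMF, BCL2 and BCL6 in GE was not tested.

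In BV, BMF was at 19.5, 25.8, 18.9 and 25.3 CPM in cyclic and at 27.3, 65.1, 46.5 and 45.2 CPM in pregnant gilts. The gap between the groups was small because of pregnant gilt P139. The log2 fold change was 1.04 (SE 0.25, 2.06-fold, edgeR adjusted p = 0.0379). Without gilt P139 it was 1.23 and called (edgeR unadjusted p = 0.000128, adjusted p = 0.0122). BMF in BV also passed 5% without cyclic gilt C78 (edgeR adjusted p = 0.0476). Without any other library it missed 5% (0.0676 to 0.102). Epithelial markers summed to 3.51 to 51.8 CPM in cyclic and to 178 to 340 CPM in pregnant BV, beside 2544 to 2842 CPM in pregnant LE. Of the 8 tested epithelial markers 7 passed 5% and 2 were called, all higher in pregnant gilts, and none of the 10 listed was at 0. Smooth muscle markers summed to 5829 to 18544 CPM in cyclic and 1054 to 6857 CPM in pregnant BV, with all 8 below 0 on the log2 fold change scale, none past 5% in edgeR's quasi-likelihood test and none at 0. At an unadjusted p under 0.05 in that test 6 were lower (28.5% of all genes passed). DESeq2 called 2 lower (8.5% of all genes) and the robust GLM 7 (11%). The part of either in the results in BV was not tested.

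BMF in S was at 24.5, 24.2, 18.4 and 26.5 CPM in cyclic and at 65.9, 69.1, 40.3 and 57.6 CPM in pregnant gilts. The groups were well apart. BMF rose in S by 1.31 on the log2 scale (SE 0.20, 2.48-fold, n = 4 and 4). The edgeR p-value before adjustment, on which calls in S rest, was 8.68e-05, and the adjusted one 0.0891. The call was lost, at edgeR values before adjustment of 0.000380 without cyclic gilt C128, 0.000412 without C40, 0.0003284 without pregnant gilt P139, 0.000342 without P39 and 0.000374 without P43, with log2 fold changes between 1.22 and 1.33. Epithelial markers summed to 11.9 to 195 CPM in cyclic and 39.01 to 512 CPM in pregnant S. All 9 tested had a log2 fold change above 0, none passed 5% and none of the 10 listed was at 0. Smooth muscle markers summed to 480 to 1208 CPM in cyclic and 431 to 574 CPM in pregnant S. Of 7 tested, 6 had a log2 fold change below 0, none of the 8 listed was at 0, and ACTA2 fell by 2.10 on the log2 scale and was called (SE 0.36, edgeR unadjusted p = 0.000273, adjusted p = 0.104). DESeq2 and the robust GLM each called 3 of the 7 smooth muscle markers lower, beside 2.6% and 3.16% of all genes. The part of either in the result of BMF in S was not tested.

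BCL2L11 encodes BIM, a BH3-only activator that binds every pro-survival member. In LE it was at 12.4, 6.95, 9.72 and 16.8 CPM in cyclic and at 28.6, 19.6, 26.9 and 29.6 CPM in pregnant gilts. These groups did not overlap, and the log2 fold change was 1.19 (SE 0.28, edgeR adjusted p = 0.0286). In GE the values were 8.48, 5.98, 3.10 and 6.99 CPM against 20.3, 10.4 and 11.3 CPM, again without overlap, and the log2 fold change of 1.20 (SE 0.40) had an edgeR adjusted p of 0.127. BV libraries were at 13.8, 12.7, 11.9 and 17.9 CPM in cyclic and at 20.4, 27.9, 23.1 and 27.7 CPM in pregnant gilts. Here, too, every pregnant library lay above every cyclic one, and the log2 fold change was 0.82 (SE 0.20, edgeR adjusted p = 0.0365). In S the values were 15.2, 15.1, 21.96 and 17.8 CPM against 52.4, 37.2, 18.7 and 33.0 CPM. Pregnant gilt P41 fell among the cyclic gilts in S, and the log2 fold change was 1.02 (SE 0.29, edgeR adjusted p = 0.176).

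No difference in BID or BBC3 passed a threshold. BID, which caspase 8 cleaves and which links death receptors to mitochondria, stayed between 12.9 and 28.2 CPM in all groups. Its log2 fold changes ran from -0.03 in BV to 0.31 in GE, with edgeR adjusted p-values from 0.472 to 0.915. In BV the interval of BID, -0.37 to 0.31, was the narrowest of the 4 compartments for this gene. BBC3, a target of p53, had 9 and 16 counts summed over cyclic and pregnant LE. The sums were 7 and 10 for GE, 21 and 44 for BV and 19 and 24 for S. Single libraries reached at most 6.59 CPM, in BV of pregnant gilt P41, so that the depth limits any comparison. In a fit of all counted genes without a filter the log2 fold changes of BBC3 were 0.61 (SE 1.13), 1.05 (1.09), 1.32 (0.72) and 0.76 (0.65) in LE, GE, BV and S, with edgeR adjusted p-values from 0.336 to 0.790.

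The effectors BAX and BAK1, which form the pore once activated, showed no difference that passed a threshold. BAX was at 6.74 ± 1.73 (SD, n = 4) in cyclic and 5.20 ± 0.602 CPM in pregnant LE, with a log2 fold change of -0.36 (95% interval -1.01 to 0.29). In GE it was at 5.58 ± 2.10 and 4.32 ± 2.41 CPM, with an interval of -1.48 to 0.78. BAX was not detectable in BV and S, with 31 and 33 counts over the groups in BV and 69 and 62 in S. BAK1 group means lay between 6.13 and 11.6 CPM, and its log2 fold changes of 0.39, 0.0095, 0.37 and 0.27 in LE, GE, BV and S, respectively, had edgeR adjusted p-values from 0.377 to 0.990. The 95% intervals of BAK1 ran from -0.20 to 0.97 in LE and from -0.47 to 1.22 in BV, where the groups held 81 and 87 counts.

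BCL6 resembled BMF and BCL2L11 in LE and GE. In LE it was at 24.0, 36.7, 23.2 and 74.8 CPM in cyclic and at 124, 79.8, 94.6 and 108 CPM in pregnant gilts. Cyclic gilt C78 came within a few CPM of the lowest pregnant library. The log2 fold change was 1.35 (SE 0.36, 2.56-fold, edgeR adjusted p = 0.0469), and without cyclic gilt C78 it was 1.86 and called (adjusted p = 0.00313). In GE the values were 6.42, 16.4, 12.4 and 30.99 CPM in cyclic and 92.8, 57.7 and 52.5 CPM in pregnant gilts. This was the largest log2 fold change of the 34 tests of members, at 2.03 (SE 0.47, 4.09-fold), with an edgeR adjusted p of 0.0678. Without cyclic gilt C78 it was 2.53, with an edgeR adjusted p of 0.0573. In BV, BCL6 was at 55.7, 65.6, 56.2 and 59.9 CPM in cyclic and at 123, 84.0, 52.7 and 116 CPM in pregnant gilts, and in S at 46.3, 82.2, 95.4 and 84.6 CPM and at 101, 133, 68.2 and 108 CPM. Pregnant gilt P41 was the lowest of the pregnant group in both, the groups overlapped, and the edgeR adjusted p-values were 0.107 in BV and 0.496 in S.

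**Figure D2:**
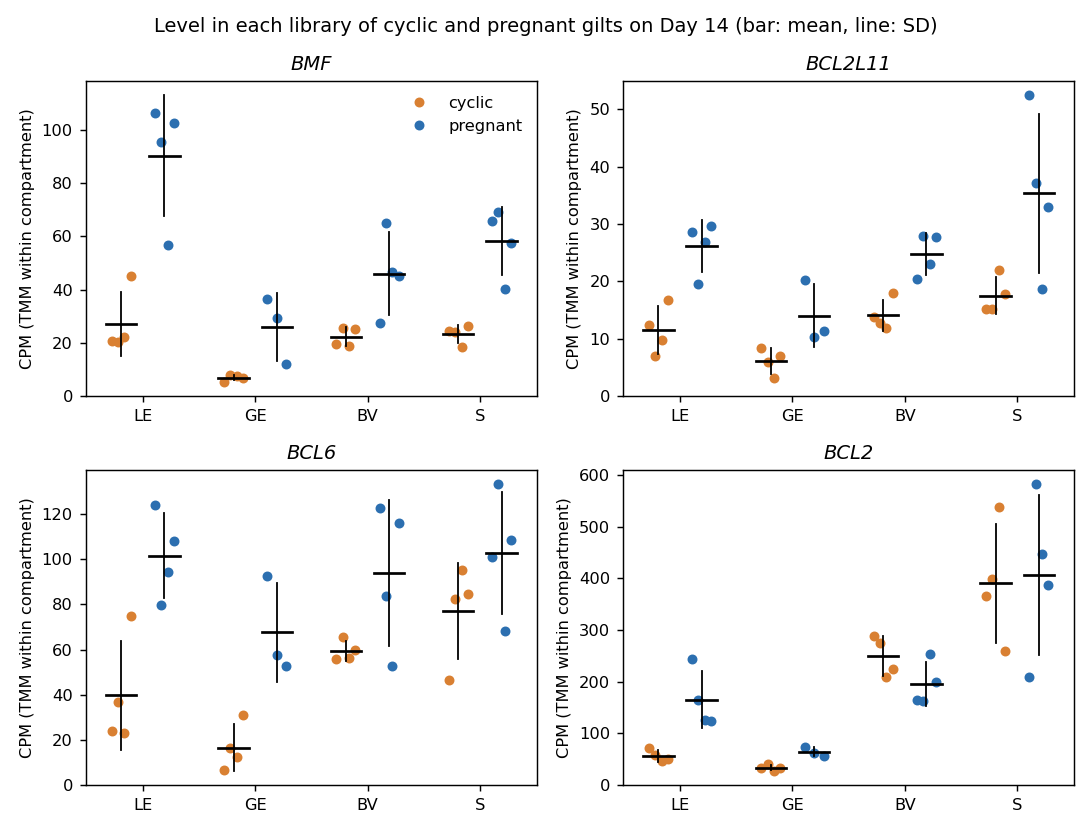
CPM (TMM within the compartment) of BMF, BCL2L11, BCL6 and BCL2 in each library of cyclic (orange) and pregnant (blue) gilts in LE, GE, BV and S; the bar is the mean and the line the SD. BMF in pregnant gilts lies above all cyclic gilts in every compartment, whereas BCL2 is separated in LE and GE and overlaps in BV and S at levels of 162 to 583 CPM.

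Whether the pregnancy effect differed between compartments was tested in a joint edgeR quasi-likelihood fit of 9727 genes detectable in all 4 compartments, with the gilt as a block and a false discovery rate of 1%. Of the 8 members in this fit BCL2 was called across the 4 compartments (adjusted p = 0.00859), beside 3.05% of all genes. Among pairs of compartments BCL2 in LE against BV was called (3.37% of all genes), its log2 fold change being larger in LE by 1.92 (SE 0.38, adjusted p = 0.00308). Against S the difference was 1.51 (SE 0.37, adjusted p = 0.0254), and against GE 0.57 (95% interval -0.27 to 1.41). The call across the 4 compartments was lost without cyclic gilt C128 (adjusted p = 0.0209), C40 (0.0411), C42 (0.0313) or C78 (0.0265) or pregnant gilt P139 (0.0137), P39 (0.0239) or P43 (0.0294), and with genes detectable in at least 1 compartment in the fit (0.0121). The call of LE against BV was lost without cyclic gilt C40 (0.0161) or C78 (0.0140) or pregnant gilt P39 (0.0133) or P43 (0.0101). Over all 8 gilts left out in turn this difference lay between 1.60 and 2.17.

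BCL6 and MCL1 had adjusted p-values of 0.0264 and 0.0277 across the 4 compartments, short of 1%. Without cyclic gilt C78, BCL6 was called (adjusted p = 0.00534). MCL1 differed most in GE against BV, by 1.02 (SE 0.26, edgeR adjusted p = 0.0476). For BMF the log2 fold changes in LE and GE differed by -0.0012 (95% interval -0.86 to 0.85). The effect in LE was above that in BV by 0.72 (-0.06 to 1.504) and that in GE by 0.72 (-0.14 to 1.59), and no pair was called, with an adjusted p of 0.426 across the 4 compartments in edgeR. BCL2L11, BCL2L1, BAK1 and BID had adjusted p-values of 0.706 to 0.890.

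**Figure D3:**
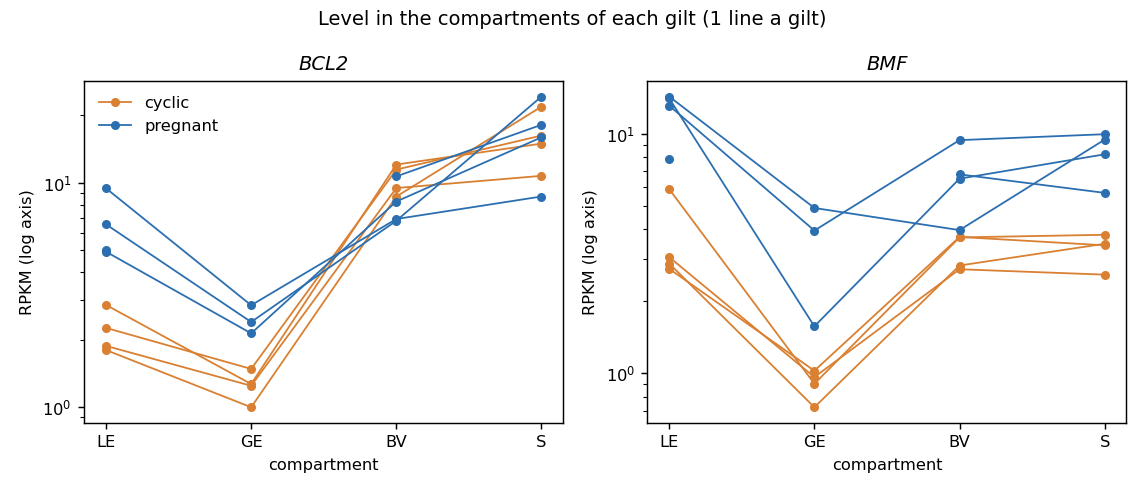
RPKM (log axis) of BCL2 and BMF in the compartments of each gilt, 1 line a gilt, cyclic in orange and pregnant in blue; pregnant gilt P41 has no GE value. For BCL2 the colours separate in LE and GE and mix in BV and S, and for BMF they separate in all compartments.

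Levels per exon length ranked the members. MCL1 was the highest of the 10 in every group, with means from 72.1 RPKM in cyclic GE to 163 RPKM in pregnant LE, above 95.04% to 98.02% of detectable genes. BBC3 was the lowest in every group, at 0.178 to 1.99 RPKM. BMF held rank 5 of the 10 in cyclic LE at 3.63 RPKM and rank 2 in pregnant LE at 12.3 RPKM, and BCL2 ranks 8 and 6. RPKM of BCL2 divides by an annotated exon length of 25894 bases, against 833 for BAX, and reads need not cover such lengths evenly, so orders between genes are rough. The ratio of MCL1 to BCL2 in RPKM had medians of 73.4, 58.5, 10.97 and 4.90 in cyclic and 28.6, 41.4, 10.1 and 3.96 in pregnant gilts for LE, GE, BV and S. The median ratio of BCL2 to BMF was 0.707, 1.41, 3.14 and 4.52 in cyclic and 0.571, 0.607, 1.42 and 2.19 in pregnant gilts, in the same order.

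**Figure D4:**
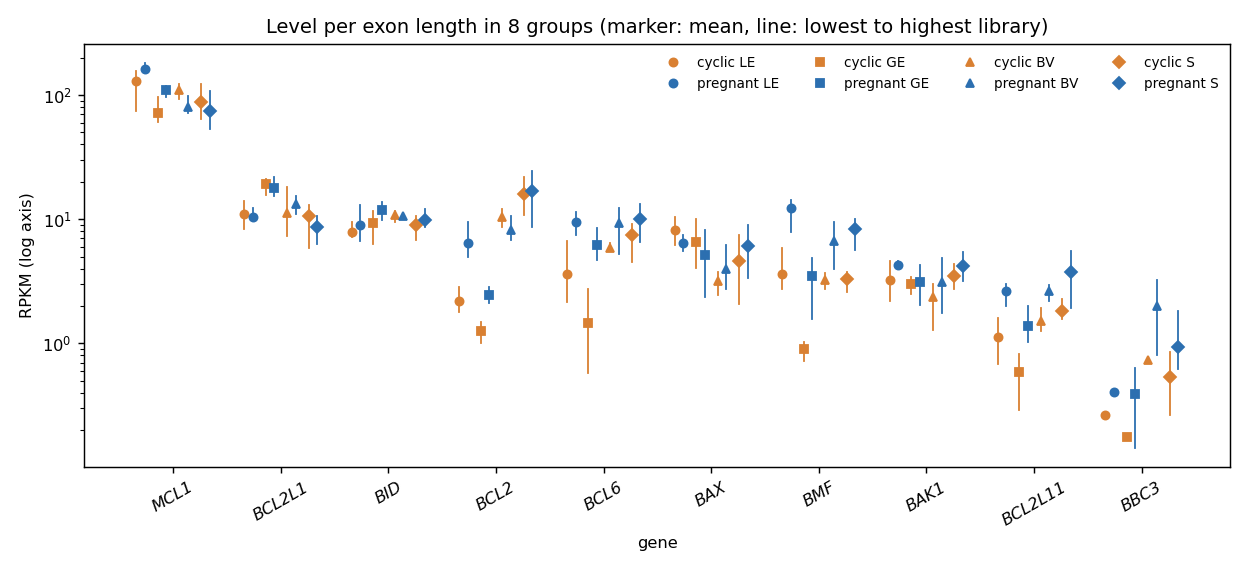
RPKM (log axis) of the 10 members in the 8 groups; colour gives the state, shape the compartment, the marker the mean and the line the range of libraries, left out where the lowest library is at 0. MCL1 lies above the other members in every group, BBC3 below them, and BCL2 spans from 1.25 RPKM in cyclic GE to 16.8 RPKM in pregnant S.

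Levels of the members in pairs of compartments were compared in the same joint fit, within cyclic and within pregnant gilts. Of 96 member and pair comparisons 29 were called at 1%, or 30.2%, a share close to the 30.1% of all genes. The calls belonged to BCL2 (8 of 12), BMF (6), BCL2L11 (5), BCL6 (4), MCL1 (4) and BCL2L1 (2). BAK1 and BID had none, and BV and S differed for no member (3.35% of all genes in cyclic and 0.0103% in pregnant gilts). Under 11 other settings, the left-out gilts included, 19 of the 29 calls were kept in every one.

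BCL2 was a gene of BV and S. In cyclic gilts its means were 16.0 RPKM in S, 10.4 in BV, 2.20 in LE and 1.25 in GE, and log2 differences were -2.25 for LE against BV, -2.87 for LE against S, -3.05 for GE against BV and -3.67 for GE against S (largest edgeR adjusted p = 1.19e-06). S and BV (adjusted p = 0.167) and LE and GE (0.0242) did not differ at 1%. In pregnant gilts the order of means was the same, 16.8, 8.15, 6.49 and 2.46 RPKM, but LE and BV were no longer told apart (-0.33, 95% interval -0.88 to 0.22), and LE lay above GE by 1.37 (adjusted p = 0.00135), a call lost without pregnant gilt P39 (0.0124) or P43 (0.0145).

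BMF and BCL2L11 were lowest in GE. BMF was at 0.905 RPKM in cyclic GE and between 3.24 and 3.63 in the other compartments, which did not differ from each other. In pregnant gilts it was at 3.47 in GE, 6.66 in BV, 8.33 in S and 12.3 RPKM in LE, GE being below each (largest edgeR adjusted p = 0.00546), while LE against BV missed 1% (adjusted p = 0.0115). GE against BV was not called in pregnant gilts without gilt P39 (adjusted p = 0.0497), P41 (0.0186) or P43 (0.0762) or without the replicate block (0.0194), nor GE against S without gilt P43 (0.0154). BCL2L11 was at 0.588, 1.14, 1.51 and 1.83 RPKM in cyclic GE, LE, BV and S and at 1.38, 2.64, 2.65 and 3.73 RPKM in pregnant ones, with GE below BV and S in both states and below LE in pregnant gilts (adjusted p = 0.00994). The call against LE was lost under 8 of the 11 settings (largest adjusted p = 0.106, 0.0252 without the replicate block), and that against pregnant BV without cyclic gilt C40 (0.0105), pregnant gilt P39 (0.0738) or P43 (0.0760) or the block (0.0197).

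BCL6 differed between compartments in cyclic gilts. Its means there were 7.49 RPKM in S, 5.89 in BV, 3.62 in LE and 1.47 in GE, GE being below each of the others and LE below S (largest edgeR adjusted p = 0.00151). LE against S was not called without cyclic gilt C40 (0.0142) or C42 (0.0324) or the replicate block (0.0185). In pregnant gilts the means were 10.1 in S, 9.53 in LE, 9.31 in BV and 6.18 in GE, and no pair was called. The effect of pregnancy on BCL6 did not differ between the compartments at 1% in the test given above (edgeR adjusted p = 0.0264). MCL1 was at 130, 110, 88.6 and 72.1 RPKM in cyclic LE, BV, S and GE, with GE below LE and BV, and at 163, 109, 80.6 and 73.9 RPKM in pregnant LE, GE, BV and S, with LE above BV by 1.04 and above S by 1.18 on the log2 scale. The cyclic calls were lost without gilt C42 (adjusted p = 0.0165 for LE and 0.0390 for BV) or C78 (0.0149 and 0.0176), and for BV also without gilt C128 (0.0119) or the replicate block (0.0214). BCL2L1 was highest in GE, at 19.3 and 17.7 RPKM in cyclic and pregnant gilts, and exceeded S by 0.85 and 1.12 on the log2 scale (edgeR adjusted p = 0.00710 and 0.00261). The cyclic call was lost under 7 of the 11 settings (largest adjusted p = 0.0301), and the pregnant one without pregnant gilt P139 (0.0146), P39 (0.0297) or P43 (0.0204).

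Genes that act with the family were taken from 5 lists, of which 79, 78, 75 and 79 genes were tested in LE, GE, BV and S. The call rule picked 2 of the 79 in LE, both higher in pregnant gilts, beside 3.32% of all genes there, and 0 elsewhere. At 5% in edgeR's quasi-likelihood test, 11 were higher and 1 lower in LE, beside 10.7% of all genes. GE had 1 and 1 (1.86%), BV 5 and 3 (8.63%) and S 0 and 0 (0.0335%). At an unadjusted p under 0.05 edgeR's quasi-likelihood test had 26 higher and 7 lower for LE (beside 26.9% of all genes), 16 and 6 for GE (23%), 14 and 12 for BV (28.5%) and 7 and 1 for S (14.5%). DESeq2 called 13 and 1, 6 and 4, 5 and 2, and 2 and 0 in these compartments, and the robust GLM 11 and 2, 7 and 3, 5 and 2, and 0 and 0. Of all genes, DESeq2 called 11.2%, 6.64%, 8.5% and 2.6%, and the robust GLM 11.8%, 6.66%, 11% and 3.16%. TNFRSF21, which encodes death receptor 6, rose in LE from 26.8 ± 6.397 to 113 ± 11.5 CPM (SD, n = 4 each), by 2.08 on the log2 scale (SE 0.19, edgeR adjusted p = 0.000900). STAT5B, a transcription factor activated by prolactin and growth hormone, rose in LE from 38.9 ± 7.49 to 88.9 ± 17.1 CPM, by 1.19 (SE 0.19, edgeR adjusted p = 0.00693). Its call was lost when any of 7 of the 8 libraries was left out, that of cyclic gilt C78 being the exception. Over all 8 the log2 fold change ran from 1.05 to 1.32, with a largest edgeR adjusted p of 0.0241.

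By list, none of the other BCL2 family genes passed 1% or 5%, with 7, 5, 5 and 7 tested in the same order. Unadjusted p-values under 0.05 in edgeR numbered 2 higher and 2 lower for LE, 2 and 2 for GE, 1 and 0 for BV and 1 and 0 for S, DESeq2 called 1, lower in GE, and the robust GLM 0. Among the apoptosome, caspases and their inhibitors, the 3 genes past 5% in BV were lower in pregnant gilts: CYCS, which encodes cytochrome c (log2 fold change -1.51, edgeR adjusted p = 0.0180), the caspase inhibitor XIAP (-0.46, 0.0352) and the mitochondrial channel VDAC2 (-0.61, 0.0468), and VDAC2 also passed in GE (-0.93, 0.0490). The median log2 fold change of this list was -0.06, -0.14, -0.35 and -0.0037 in LE, GE, BV and S, and that of the other BCL2 family genes -0.15, -0.29, 0.09 and -0.00068.

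In death receptor signalling, with medians of 0.16, 0.04, 0.22 and 0.15 in the same order, TNFRSF1B, a receptor of tumor necrosis factor, passed 5% in LE (1.42, edgeR adjusted p = 0.0264), TNFRSF21 in BV (1.32, 0.0474) and TNFSF10, the ligand TRAIL, in GE (3.86, 0.0478), where the pregnant libraries averaged 161 ± 171 CPM (SD, n = 3) against 11.096 ± 0.839 CPM in cyclic gilts. Of regulators of the family, with medians of 0.22, 0.12, -0.10 and -0.05, STAT5A (1.60, adjusted p = 0.0204), FOXO1 (1.55, 0.0327) and TMBIM1 (0.65, 0.0451) were higher and DYNLL2 (-0.75, 0.0172), the dynein light chain that binds BMF, was lower at 5% in pregnant LE, and FOXO3 was higher in BV (0.67, 0.0402). From the list of BCL6 cofactors, relatives and repressed targets, the corepressor BCOR (1.12, edgeR adjusted p = 0.0254), BACH2 (2.29, 0.0211), ZBTB16 (0.95, 0.0428) and CDKN1A (1.75, 0.0450) were higher at 5% in LE, and ID2 (1.19, 0.0374), CDKN1B (0.63, 0.0379) and SOCS2 (0.63, 0.0454) in BV. The median log2 fold change of this last list was 0.39, 0.22, 0.21 and 0.18 for the 4 compartments, beside -0.0073, -0.0082, 0.0018 and 0.0012 for all genes. BCL2L2, BIK, BIRC2, TNFRSF10A and TNFRSF10B were not analysed here.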

How the data were processed

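RNA of laser captured LE, GE, BV and S was amplified in low-input libraries. Per its methods, the study used Trim Galore for trimming, Hisat2 for alignment to Sscrofa11.1, nudup to take out PCR duplicates and QuasR to count reads on NCBI genes. Versions and the strand setting of the counting are not given in the sources used here, so reads of overlapping genes may be shared. The deposited values are whole counts without normalization, in a full and a filtered table for each compartment. The authors' minimum CPM for the filtered table is not given in the sources used here.

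Pregnant and cyclic libraries of the filtered tables were compared per compartment in edgeR 4.0.16 by its quasi-likelihood F test (R 4.3.3, TMM, glmQLFit and glmQLFTest), and 31 libraries together for differences between compartments, with the gilt as replicate block. Same-numbered libraries come from the same animal. Their deviations from group means correlated with r from -0.147 to 0.363 (median 0.167, 34 of 45 pairs above 0.1). Fold changes are model estimates on the log2 scale, and their standard errors come from the quasi-likelihood fit. RPKM used the summed exon length of the Sscrofa11.1 annotation, which also gave symbols and positions. No pair of libraries of a group agreed within sampling noise in a chi-square test of their counts (chi-square per gene 6.97 to 72.1 over 45 pairs). The members and the gene lists were chosen with earlier results of these data known. All 10 members were named, with every library's value where an unadjusted p was under 0.05 in a compartment, and of the lists those called or past 5%, the latter chosen after their values were seen. A further list gene past 5% is not reported here.

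Alternatives were DESeq2 1.42.0, edgeR's robust GLM, RLE factors, no filter, filterByExpr, removal of RN18S and RN5-8S, other call rules, no block, and each library or gilt left out.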

Additional observations from a re-analysis of the deposited data

Results flagged for a closer look

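Of 70 groups of 4 libraries, 3 held a member with 1 library far from the others, where chance flags about 1 in 20. BMF in cyclic LE of gilt C78 was at 45.1 CPM, with the next library at 22.3 CPM. MCL1 in cyclic LE of gilt C128 was at 285 CPM, with the next at 558 CPM. BBC3 in pregnant S of gilt P39 was at 3.72 CPM, with the next at 1.37 CPM. BCL2 stood out because its pregnancy effect differed between the 4 compartments (edgeR adjusted p = 0.00859) and was larger in LE than in BV by 1.92 on the log2 scale (edgeR adjusted p = 0.00308).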

How the results depend on the processing

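Over 638 results of single genes and contrasts under other settings, 560 kept their direction and side of the threshold, 36 were newly called, 32 lost the call and 10 changed sign. These include other call rules on the main fit, where no direction can change, and members far from any threshold, so 560 is no measure of stability. The call of BCL2 in LE was lost without 6 of 8 libraries. Members called in LE numbered 1, and 2 with RLE factors, without a filter or at an unadjusted p limit of 0.0012, and 4 with DESeq2, the robust GLM or a 5% rate. In GE they numbered 0, and 3 with DESeq2 or the robust GLM and 2 at 5% or at 0.0012. In BV they numbered 0, and 2 with DESeq2 or at 5% and 3 with the robust GLM. In S they numbered 1, and 2 with the robust GLM and 0 at 1% or 5% within the compartment. Leaving out 1 library gave 0 to 2 calls in LE and 0 to 1 in GE, BV and S. No share of all genes is given for the counts at 0.0012, with RLE factors, without a filter or without 1 library. Those counts are therefore not set against other genes. Without cyclic gilt C78 the calls in LE were BMF and BCL6, and in S the call of BMF was lost without 5 of 8 libraries.

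Members whose effect differed across the 4 compartments numbered 1, and 3 at 5%, 0 with genes detectable in at least 1 compartment (chosen after seeing the data) and 0 to 1 without 1 gilt. Pairs of compartments with a called difference numbered 1, and 2 with DESeq2, 4 at 5% and 0 to 1 without 1 gilt. No share of all genes is given for the counts at 5% and with DESeq2, so they are not set against other genes. Without the replicate block the counts were 1 and 1, BCL2 kept its calls (adjusted p = 0.00440, and 1.92 for LE against BV), and level differences numbered 24 in place of 29, so the block changed none of these counts by over 1.5 times.

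Signs changed for log2 fold changes near 0 that were not called. Without 1 library, BCL2L1 in LE ranged from -0.22 to 0.023 (above 0 without cyclic gilt C128 or C78), BID in LE from -0.059 to 0.29 (below 0 without pregnant gilt P43), BAK1 in GE from -0.27 to 0.24 (below 0 without cyclic gilt C128 or pregnant gilt P139), BID in BV from -0.084 to 0.015 (above 0 without cyclic gilt C128 or C42) and BCL2 in S from -0.16 to 0.28 (below 0 without cyclic gilt C78 or pregnant gilt P39). BAK1 in GE was at -0.0059 without a filter. The causes were not tested. Groups of 3 or 4 gilts limit the precision, and for BBC3 and BAX the counts do.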

Other observations

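Over the 31 libraries of the joint normalization, the genes whose log2 CPM followed BMF most closely were KLF9, a zinc finger transcription factor (Pearson r = 0.896), CFD, complement factor D (0.878), CTSF, a cathepsin (0.876), SLA-3, a class I molecule of the pig major histocompatibility complex (0.874), and FOSL2, an AP-1 subunit (0.871). For BCL6 they were TSPAN5, a tetraspanin (0.907), LOC110257572 (0.894), TCP11L2 (0.878), ITIH3, an inter-alpha-trypsin inhibitor heavy chain (0.876), and MAP3K3, a kinase (0.872). These values describe libraries that share gilts and differ in compartment and state, and have no test.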
